A study of Mus musculus with 26 samples.

Results

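The 10 interferon-inducible GTPases described here were followed across sorted mouse antigen-presenting cells: the guanylate-binding proteins (GBPs) Gbp2, Gbp3, Gbp5, Gbp6, Gbp7, Gbp8 and Gbp9, and the immunity-related GTPases (IRGs) Igtp, Irgm1 and Iigp1. They were taken by symbol from a list of 10 names, all 10 of which were among the 23420 symbols of the table and among the 13311 genes with enough signal to be tested. RNA sequencing had been done on 26 libraries in 10 groups, made of 5 cell types from mice labelled mTOR {delta}APC (called KO here) and from wild type littermates (WT). For each genotype there were 2 libraries of spleen CD8a dendritic cells (DCs), 2 of spleen CD11b DCs, and 3 each of CD11b DCs from lung, alveolar macrophages and lung inflammatory DCs. The cells from spleen, lung CD11b DCs and alveolar macrophages came from mice at steady state. For inflammatory DCs the mice had received 25 µL of house dust mite extract at 1 mg/mL into the nose thrice weekly, with day 17 in the sample labels and 18 days in the protocol. The labels give mTOR {delta}APC as the genotype and name neither the Cre driver nor the Mtor allele, and they do not give ages, sexes or whether animals were pooled.

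GBPs and IRGs are large GTPases that cells make in response to interferons, above all interferon-gamma, in part through the transcription factor IRF1. They gather on the membranes of vacuoles that hold intracellular microbes and take part in breaking those vacuoles open, and some GBPs also promote inflammasome activation. Among the IRGs, Irgm1 and Igtp (also called Irgm3) are regulators that sit on the cell's own membranes and keep effector IRGs inactive there, whereas Iigp1 (also called Irga6) is an effector that loads onto vacuoles. The mouse Gbp genes lie in clusters on chromosomes 3 and 5. Gbp5, Gbp7, Gbp3 and Gbp2 lie in this order on chromosome 3, with Gbp2b between the last pair, and Gbp8, Gbp9 and Gbp6 lie on chromosome 5. Igtp and Irgm1 both lie on chromosome 11.

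The promoters of 4 members, picked with their values known, are shown because their genes moved apart or together: Gbp2 and Gbp7, genes of the same cluster whose values parted in alveolar macrophages and spleen CD8a DCs, and the regulators Igtp and Irgm1, which stayed close to each other. Each line holds the 250 bases before the RefSeq transcription start in GRCm38.p6, read 5′ to 3′ on the gene's strand. Capitals mark the core of an interferon-stimulated response element, GAAANNGAAA on either strand. In Gbp2 and Gbp7 it lies on the opposite strand, so that its reverse complement is seen.
Gbp2: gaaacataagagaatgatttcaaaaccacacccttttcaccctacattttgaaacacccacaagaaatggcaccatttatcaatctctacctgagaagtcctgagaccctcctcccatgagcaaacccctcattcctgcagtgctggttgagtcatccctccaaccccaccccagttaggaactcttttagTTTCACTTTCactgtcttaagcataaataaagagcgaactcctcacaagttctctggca
Gbp7: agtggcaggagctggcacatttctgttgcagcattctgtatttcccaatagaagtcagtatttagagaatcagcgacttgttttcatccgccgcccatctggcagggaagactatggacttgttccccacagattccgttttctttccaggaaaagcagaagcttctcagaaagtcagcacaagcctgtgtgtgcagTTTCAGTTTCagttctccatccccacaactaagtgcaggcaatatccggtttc
Igtp: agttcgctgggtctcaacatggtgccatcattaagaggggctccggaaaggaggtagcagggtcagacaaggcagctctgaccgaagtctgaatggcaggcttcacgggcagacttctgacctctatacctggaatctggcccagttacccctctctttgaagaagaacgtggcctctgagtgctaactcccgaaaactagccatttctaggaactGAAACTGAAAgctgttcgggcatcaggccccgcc
Irgm1: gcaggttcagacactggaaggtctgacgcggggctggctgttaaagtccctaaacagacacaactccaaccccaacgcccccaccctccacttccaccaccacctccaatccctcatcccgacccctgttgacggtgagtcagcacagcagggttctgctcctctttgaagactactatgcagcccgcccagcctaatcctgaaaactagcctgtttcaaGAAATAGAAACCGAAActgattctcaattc
The windows are chr3:142620413-142620662 (plus strand) for Gbp2, chr3:142530086-142530335 (plus strand) for Gbp7, chr11:58199306-58199555 (plus strand) for Igtp and chr11:48871421-48871670 (minus strand) for Irgm1. The core lay 59 to 50 bases before the start in Gbp2, 53 to 44 in Gbp7 and 34 to 25 in Igtp. Irgm1 held 2 overlapping cores, at 30 to 21 and 24 to 15 bases before its start. RefSeq promoters were searched for 6 members (Gbp2, Gbp3, Gbp5, Gbp7, Igtp and Irgm1), which have 7 windows because Gbp3 has a pair. Those of Gbp6, Gbp8 and Gbp9 were not in the promoter set. Iigp1 was left out before the search, so the counts of motifs do not cover it. The core was in 6 of the 7 windows, 1 for each gene, against 2.98% of 32851 RefSeq promoter windows of 250 bases. The GAS element (gamma-activated sequence) TTCNNNGAA, which reads the same on both strands, was found in the windows of Gbp5, Gbp7 and Igtp, 3 of the 7, against 7.02% of all windows. No match in Gbp2, Gbp3 or Irgm1 says only that these letters are not in the window, and a match is a description of the sequence.

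Several facts of the libraries bear on the comparisons. The libraries held between 7.37 and 14.1 M recovered reads and between 12992 and 14407 genes above 0. Mtor was at 332.2 to 475.6 normalized counts in the WT libraries, 40.0 to 104.1 in KO spleen DCs and alveolar macrophages, and 169.3 to 316.0 in KO lung and inflammatory DCs. Y-linked reads marked all KO libraries and no WT library in spleen and alveolar macrophages, so genotype and the sex of the mice cannot be told apart there. In lung CD11b DCs they marked KO replicate 1 alone, and in inflammatory DCs they marked every library. Some of these libraries also held Xist, a transcript of female cells, and thus RNA of both sexes. In KO spleen CD8a and CD11b DCs Xist was at 3619.7 and 3092.4 normalized counts in replicate 1 and 12.0 and 21.4 in replicate 2. It was at 571.9 to 2293.1 in KO alveolar macrophages, 1450.4 in KO lung replicate 1 and 717.5 in WT inflammatory replicate 1. Whether animals were pooled is not given. Defining markers were checked against the labels: cDC1 genes were highest in CD8a DCs and alveolar macrophage genes in alveolar macrophages. The cDC2 list did not follow the labels in this way, since its summed level was 21781.2 and 22108.8 normalized counts in WT spleen CD11b DCs and 28264.3 to 28642.2 in WT alveolar macrophages. WT spleen CD8a DCs also held red pulp macrophage markers. The inflammatory libraries held alveolar macrophage markers, WT replicate 1 the most. Both are given beside the results. In bulk samples such as these, fewer cells of a type and less RNA per cell cannot be told apart.

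In WT cells the order of the members differed by cell type. On the scale of normalized counts per kb of GENCODE exon, Gbp2 had the highest mean level in inflammatory DCs, 984.0 ± 128.0 (SD, n = 3), and also led in lung CD11b DCs at 220.8 ± 24.6 (n = 3). Gbp8 led in spleen CD11b DCs at 478.7 ± 37.9 (n = 2) and in spleen CD8a DCs at 248.1 ± 39.4 (n = 2), followed in both by Gbp9 at 312.4 ± 3.60 and 169.9 ± 29.4. Gbp7 led in alveolar macrophages at 170.9 ± 9.29 (n = 3), where the lowest Gbp7 library at 161.4 was above the highest Gbp2 library at 124.2. Gbp6 was the lowest member in spleen DCs and lung CD11b DCs, with means of 1.49 to 1.94, and Iigp1 was lowest in alveolar macrophages at 0.194. The regulators were never at the bottom: per-kb means of Igtp lay between 96.8 in alveolar macrophages and 264.9 in inflammatory DCs, and those of Irgm1 between 57.0 and 277.0 in the same cells. Neighbouring ranks often overlapped, as for Igtp and Irgm1 in lung CD11b DCs (118.9 to 158.7 and 104.8 to 124.9 per kb). The same held for Irgm1, Gbp3, Igtp and Gbp7 in inflammatory DCs, whose means lay between 256.5 and 277.0 per kb. The annotation used for counting is not given, so the order of genes within a cell type rests on GENCODE lengths. The GENCODE and RefSeq models of Irgm1 and Gbp5, for instance, differ in extent. The assignment of reads common to Gbp8 and its neighbours is not given either.

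**Figure D1:**
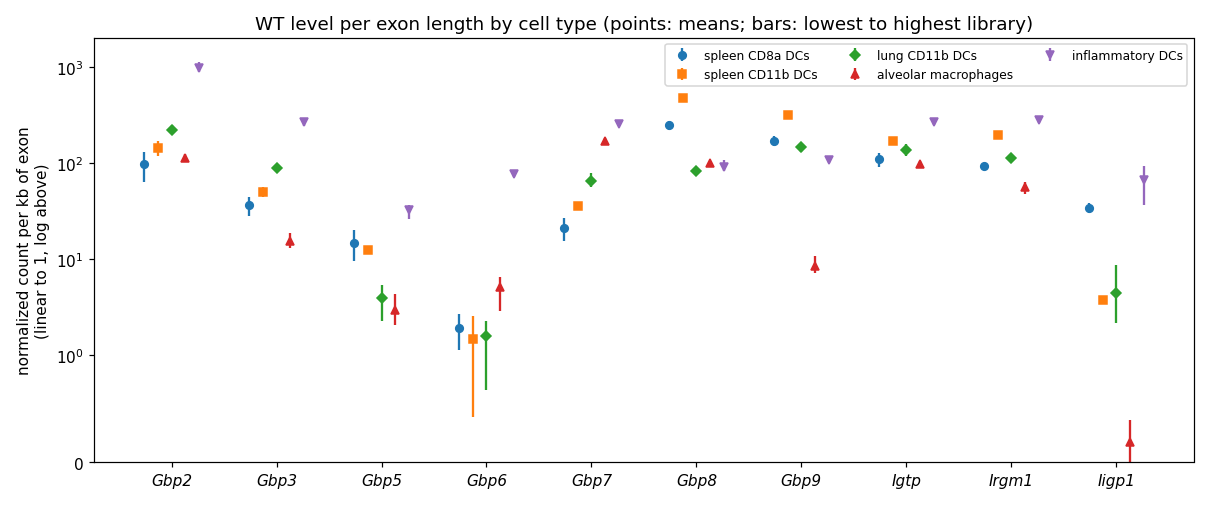
Level of each member in WT cells as normalized count per kb of exon (vertical axis, linear up to 1 and logarithmic above) for the 5 cell types. Points are group means and bars run from the lowest to the highest library; Gbp2 in inflammatory DCs has the highest mean at 984.0, and Iigp1 in alveolar macrophages the lowest at 0.194.

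The WT cell types were compared by the difference of mean log2(normalized count + 1), here called log2 fold change and given ± its moderated standard error from limma, with p-values adjusted over all genes tested (Benjamini-Hochberg) and calls made under 0.05. Against spleen CD11b DCs, CD8a DCs had 1 of 10 members higher, where 12.2% of all tested genes were higher, and 4 lower, where 10.8% were lower. The effector Iigp1 was the higher one: it was at 174.7 and 223.0 normalized counts in WT CD8a DCs and at 21.5 and 22.9 in WT CD11b DCs (log2 fold change 3.10 ± 0.80, adjusted p = 0.00622 by limma). Irgm1, Gbp8, Gbp9 and Gbp7 were lower in CD8a DCs, by -0.81 to -1.07. Red pulp macrophage marker sums (5 genes) were 22744.5 and 40425.6 in these WT CD8a libraries and 2413.6 and 3472.8 in the WT CD11b ones. The part of such transcripts in these differences was not tested. Lung CD11b DCs against spleen CD11b DCs had 2 members higher (background 21.1%), Gbp3 and Gbp7, and 4 lower (background 13.8%), Gbp5, Gbp8, Gbp9 and Irgm1. Gbp8 differed most, with 267.5 to 310.9 normalized counts in lung and 1555.8 and 1740.2 in spleen (log2 fold change -2.51 ± 0.31). Alveolar macrophages against lung CD11b DCs had 2 members higher (background 24.0%), Gbp6 and Gbp7, and 5 lower (background 27.2%), Gbp2, Gbp3, Gbp9, Irgm1 and Iigp1. Gbp9 was at 37.5 to 56.0 normalized counts in alveolar macrophages and 679.3 to 841.7 in lung CD11b DCs (log2 fold change -4.08 ± 0.24, adjusted p = 1.47e-12 by limma). With only the groups compared in the fit, or without either WT library of spleen CD11b DCs, CD8a DCs had 1 member higher and 1 lower.

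Inflammatory DCs, taken after house dust mite, differed from steady-state lung CD11b DCs in the WT mice. Of the 10 members 8 were higher and 0 lower, where 23.7% of all tested genes were higher and 23.8% lower. The median log2 fold change was 1.79 over the members and -0.01 over all genes. Gbp6 went from 4.0 to 13.7 normalized counts in lung CD11b DCs to 422.3 to 488.3 in inflammatory DCs, a 47.4-fold difference on the log2(count + 1) scale (log2 fold change 5.57 ± 0.59, adjusted p = 4.90e-08 by limma). Iigp1 went from 12.7 to 50.8 up to 211.6 to 548.8 (3.99 ± 0.66), and Gbp5, linked to inflammasome activation, from 15.3 to 36.0 up to 176.0 to 241.6 (3.07 ± 0.39). For both genes no inflammatory library overlapped a lung one. Gbp2, Gbp7, Gbp3, Irgm1 and Igtp were higher by 2.15, 1.98, 1.60, 1.31 and 0.97. Gbp8 and Gbp9 were not called, with log2 fold changes of 0.11 (95% interval -0.46 to 0.69) and -0.44 (-0.95 to 0.06). Alveolar macrophage marker sums (7 genes) were 6876.4 to 20123.6 in WT inflammatory DCs and 928.4 to 1205.8 in WT lung CD11b DCs. Conventional DC marker sums (6 genes) were 80436.5 to 91800.2 and 190714.0 to 229683.0. The part of such transcripts in the members' values was not tested. Cell type and house dust mite exposure change together in this comparison and cannot be told apart. All WT lung libraries lack Y-linked reads whereas all inflammatory ones have them.

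In KO lung CD11b DCs at steady state, 8 of the 10 members rose against WT and none fell, where 12.0% of all tested genes rose and 14.0% fell. The 4 members on chromosome 3 (Gbp2, Gbp3, Gbp5 and Gbp7), Gbp6 on chromosome 5, both regulators and the effector Iigp1 were higher, while Gbp8 and Gbp9 were not called. The median log2 fold change was 2.03 over the members and -0.05 over all genes. For these 8 members every KO library lay above every WT library, as it did for 13.6% of all genes.

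Gbp2, which gathers on parasite vacuoles, was at 517.8, 627.0 and 521.6 normalized counts in the WT lung libraries and at 2057.0, 1835.4 and 3295.1 in the KO ones. The lowest KO library was above the highest WT library, and the mean difference was 4.18-fold (log2 fold change 2.06 ± 0.27, adjusted p = 6.06e-06 by limma). Gbp7, in the same cluster, was at 318.5, 345.8 and 439.3 in WT and 1410.7, 1776.3 and 2086.4 in KO (2.25 ± 0.21, adjusted p = 6.24e-08 by limma). Gbp3 was at 282.8, 320.4 and 266.8 in WT and at 813.9, 823.3 and 881.6 in KO (1.53 ± 0.25), the tightest KO values of the 4 members there. Gbp5 rose from a low level, 27.1, 36.0 and 15.3 in WT, to 350.7, 224.1 and 215.9 in KO (3.33 ± 0.39, adjusted p = 1.22e-06 by limma). Gbp5 thus changed 10.0-fold, more than the other 3 members of its cluster, though that difference between genes was not tested.

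On chromosome 5 the members parted in the same lung libraries. Gbp6 was low in WT, at 10.8, 13.7 and 4.0 normalized counts, and was at 148.2, 311.9 and 439.8 in KO, the widest change among the members at 28.6-fold (log2 fold change 4.84 ± 0.59, adjusted p = 1.85e-06 by limma). Gbp8 was at 310.9, 267.5 and 285.4 in WT and at 221.9, 286.5 and 422.9 in KO, with overlapping groups (0.06, 95% interval -0.52 to 0.64). Gbp9 was at 679.3, 841.7 and 734.4 in WT and 742.2, 607.4 and 1060.4 in KO, again overlapping (0.06, 95% interval -0.44 to 0.57). The intervals leave out changes as large as those of the other 8 members. In GENCODE M21 the gene model of Gbp8 runs from 105014150 to 105139540 on chromosome 5, across Gbp9 and Gbp4, and shares 60 exon bases with Gbp9 and 61 with Gbp4. The RefSeq models of Gbp8 (105012513 to 105053609) and Gbp9 (105076464 to 105110357) do not overlap. How reads common to these genes, or to other near-identical GBP copies, were assigned is not given in the sources used here, so the values of Gbp8 and Gbp9 are uncertain to that extent.

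The regulators moved together in lung CD11b DCs. Irgm1 was at 619.7, 609.0 and 725.5 normalized counts in WT and 2269.2, 2762.2 and 2822.3 in KO, the smallest p among the members (log2 fold change 2.00 ± 0.17, adjusted p = 9.21e-09 by limma). Igtp was at 240.5, 265.4 and 320.8 in WT and 842.9, 790.5 and 1293.1 in KO (1.79 ± 0.21, adjusted p = 1.39e-06 by limma). In GENCODE M21 Igtp shares 162 exon bases with its neighbour Irgm2, which rose as well (2.26 ± 0.39). Under that annotation reads on the shared bases could belong to either gene. In RefSeq these genes do not overlap, with Igtp ending at 58207592 and Irgm2 starting at 58214977. The effector Iigp1 was at 15.2, 12.7 and 50.8 in WT and 241.3, 327.5 and 759.5 in KO (4.12 ± 0.66, adjusted p = 6.24e-05 by limma). KO replicate 3 was the highest KO library for 9 of the 10 members.

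Other measures moved with genotype in the lung libraries. The summed level of 7 cDC2 markers was 61020.4 to 68047.8 in WT and 23378.6 to 33496.0 in KO, with 2 of 7 called lower, and that of 9 monocyte and macrophage markers was 30960.9 to 33740.6 in WT and 39722.1 to 47011.6 in KO, with 4 called higher and 1 lower. No marker of either list was at 0 in all libraries of a group. Of 6 conventional DC markers 3 were called lower and 1 higher, with sums of 190714.0 to 229683.0 in WT and 134748.9 to 169276.2 in KO. Of 7 cDC1 markers 3 were called lower, as were 3 of 7 alveolar macrophage markers, with none higher in either list. Of 4 plasmacytoid DC markers, a list that holds the interferon-responsive Bst2, 2 were called higher, with sums of 1135.9 to 1506.9 in WT and 2016.8 to 2434.9 in KO. The part of these changes in the members' values was not tested. All 8 calls were also made without KO replicate 1, the only lung CD11b library with Y-linked reads. The lung libraries further fell into 3 with 13876 to 14407 genes above 0 (WT replicates 1 and 2, KO replicate 1) and 3 with 12992 to 13173, and 8 members were called higher within each set, as were 621 and 1797 of the 13311 genes tested. This split was added after the data were seen, and a genotype left with 1 library in a set was assumed to vary like the other groups.

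**Figure D2:**
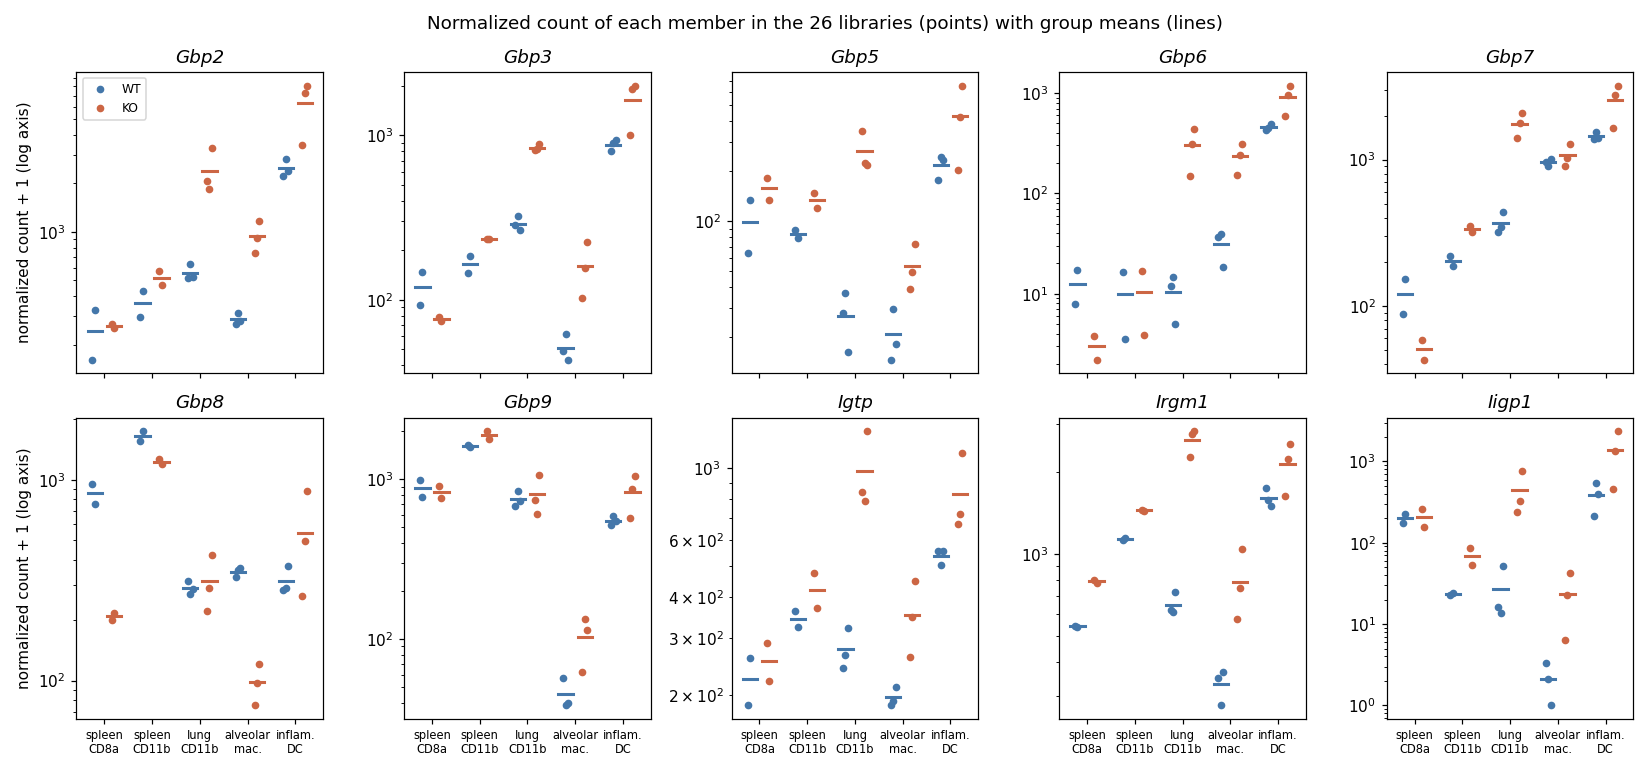
Normalized count plus 1 (log axis, a separate scale for each gene) of the 10 members in all 26 libraries, with points for libraries, lines for group means, WT in blue and KO in orange. In lung CD11b DCs the KO points of every member except Gbp8 and Gbp9 lie above all WT points.

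In KO alveolar macrophages 8 of the 10 members rose and 1 fell, where 10.5% of all tested genes rose and 6.39% fell. Gbp2, Gbp3, Gbp5, Gbp6, Gbp9, Irgm1, Igtp and Iigp1 rose, Gbp8 fell, and Gbp7 was not called. The median log2 fold change was 1.30 over the members and 0.02 over all genes. For the 8 members that rose, every KO library was above every WT library, as for 23.1% of all genes.

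Gbp2 was at 266.1, 312.4 and 279.7 normalized counts in WT alveolar macrophages and at 736.2, 914.0 and 1167.5 in KO (log2 fold change 1.69 ± 0.27, adjusted p = 7.57e-05 by limma). Gbp3 was at 48.0, 60.7 and 42.3 in WT and at 101.8, 155.0 and 224.7 in KO (1.60 ± 0.25, adjusted p = 4.87e-05 by limma). Gbp7, of the same cluster, did not follow Gbp2 and Gbp3: it was already at 961.7, 906.2 and 1010.5 in WT and stood at 901.7, 1018.8 and 1278.9 in KO, with overlapping groups (0.14, 95% interval -0.31 to 0.58). Gbp5 was low, at 13.7, 28.7 and 17.3 in WT and 38.0, 48.4 and 72.2 in KO (1.38 ± 0.39, adjusted p = 0.0152 by limma). Its call was lost without WT replicate 1, WT replicate 3 or KO replicate 3 (adjusted p = 0.0558 to 0.0898 by limma).

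The chromosome 5 genes moved in opposite directions in these cells. Gbp6 was at 35.4, 38.6 and 17.3 normalized counts in WT and 151.3, 241.0 and 311.5 in KO (log2 fold change 2.92 ± 0.59, adjusted p = 8.31e-04 by limma). Gbp9 was at 56.0, 37.5 and 39.0 in WT and 61.1, 133.5 and 113.3 in KO (1.15 ± 0.24, adjusted p = 0.00144 by limma). Gbp8 was at 327.8, 352.1 and 363.2 in WT and at 74.3, 96.8 and 119.7 in KO, 3.62-fold lower with no overlap (-1.86 ± 0.28, adjusted p = 3.04e-05 by limma).

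All 3 IRGs rose in alveolar macrophages. Irgm1 was at 349.5, 277.1 and 366.5 normalized counts in WT and at 577.8, 748.2 and 1043.2 in KO (log2 fold change 1.22 ± 0.17, adjusted p = 8.41e-06 by limma). Igtp was at 185.0, 191.0 and 211.4 in WT and 261.0, 347.7 and 447.6 in KO (0.81 ± 0.21, adjusted p = 0.00860 by limma). Iigp1 was at 2.3, 1.1 and 0.0 in WT, 3 reads in all, and at 5.3, 21.5 and 41.1 in KO, 75 reads (3.25 ± 0.66, adjusted p = 8.81e-04 by limma). The ratio of these totals per size factor was 20.2 (95% exact conditional binomial interval 6.66 to 100.3, covering counting error only), and the fitted fold change depends on the pseudocount at this level.

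KO replicate 1 was the lowest KO alveolar macrophage library for all 10 members, and KO replicate 3 the highest for 9. The summed level of 7 T cell markers was 15.5 to 19.4 in WT and 96.5 to 181.9 in KO, with 5 of 7 called higher, none at 0 in all libraries of a group, and KO replicate 1 the lowest of the KO libraries. Cd3d was at 1.1, 0.0 and 0.0 in WT and 6.2, 13.4 and 12.8 in KO. NK cell marker sums (6 genes, 2 of the 5 tested called higher) were 5.4 to 12.6 in WT and 29.2 to 90.5 in KO. Klra8 was at 0 in all libraries of both groups and Eomes in all WT ones. Neutrophil marker sums (4 genes, 2 called higher) were 582.5 to 681.1 in WT and 1375.1 to 1644.3 in KO. Conventional DC marker sums (6 genes, 2 called higher) were 14497.8 to 15497.5 in WT and 21838.5 to 22937.8 in KO, and plasmacytoid DC sums (4 genes, 2 called higher) 462.5 to 482.5 and 721.2 to 1021.3. Sums of 6 lung epithelium and endothelium markers went the other way, at 1393.4 to 1481.0 in WT and 263.7 to 594.7 in KO, with 1 called higher and 1 lower of the 5 tested. The plasmacytoid DC list includes Bst2, which is also in the type I interferon list below. Of 9 monocyte and macrophage markers 4 were called higher and 1 lower, and of 7 cDC2 markers 3 were called higher. Both of these lists had lower sums in KO. Of 5 red pulp macrophage markers 2 were called higher, and of 7 alveolar macrophage markers 1 was called lower. The part of these markers in the members' values was not tested. Without KO replicate 3 the members called were 6 higher and 1 lower.

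In KO inflammatory DCs all 10 members had higher means than in WT, but only Gbp2 and Gbp7 were called, 2 of 10 where 1.45% of all tested genes rose and 1.92% fell. The median log2 fold change was 0.80 over the members and -0.02 over all genes, and 9 of the 10 members had an unadjusted p under 0.05. Every KO library was above every WT library for Gbp2, Gbp3, Gbp6, Gbp7 and Igtp, 5 of 10 members against 9.83% of all genes.

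Gbp2 was at 2211.9, 2834.8 and 2380.5 normalized counts in WT inflammatory DCs and 3454.0, 7300.5 and 8095.0 in KO (log2 fold change 1.26 ± 0.27, adjusted p = 0.0104 by limma). Gbp7 was at 1375.4, 1531.3 and 1413.9 in WT and 1653.8, 2772.7 and 3201.3 in KO (0.77 ± 0.21, adjusted p = 0.0497 by limma). Both calls were lost with only the groups compared in the fit, where adjusted p was 0.181 for Gbp2 and 0.238 for Gbp7 by limma. That fit called none of the 13311 genes tested. Gbp3 missed the threshold, at 801.0, 902.0 and 932.6 in WT and 1002.6, 1922.3 and 2008.0 in KO (0.84, 95% interval 0.33 to 1.35, adjusted p = 0.0660 by limma). It was called by edgeR (adjusted p = 0.0235), by DESeq2 (0.00702) and by limma with a pseudocount of 8 (0.0455). Gbp5 and Gbp6 had log2 fold changes of 0.84 (0.03 to 1.64) and 0.94 (-0.27 to 2.16). Gbp8 and Gbp9 had values of 0.64 (0.06 to 1.22) and 0.54 (0.04 to 1.05).

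Among the IRGs of the inflammatory DCs, Iigp1 varied most. It was at 211.6, 548.8 and 394.2 normalized counts in WT and at 461.6, 1330.6 and 2352.6 in KO, with 1 KO library inside the WT range. Limma did not call it (log2 fold change 1.66, 95% interval 0.30 to 3.02, adjusted p = 0.213), whereas edgeR did (1.85, adjusted p = 0.0477). Igtp was at 552.1, 501.6 and 553.3 in WT and 670.3, 719.0 and 1105.2 in KO (0.60, 95% interval 0.16 to 1.04). Irgm1 was at 1752.3, 1571.5 and 1504.9 in WT and 1631.7, 2226.1 and 2534.9 in KO, with overlap (0.38, 95% interval 0.04 to 0.73).

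KO inflammatory replicate 1 was the lowest KO library and replicate 3 the highest KO library for all 10 members. Without KO replicate 1, 4 members were called higher; without WT replicate 2 or WT replicate 3, 1 was, and without KO replicate 2, KO replicate 3 or WT replicate 1, none was. WT replicate 1 stood apart, with an alveolar macrophage marker sum (7 genes) of 20123.6 against 6876.4 and 9274.7 in the other WT libraries and 3246.3 to 5319.4 in KO, where 3 of 7 markers were called lower. Of other lists in KO inflammatory DCs, 4 of 6 conventional DC markers were called lower and 1 higher (median log2 fold change -1.26), with sums of 80436.5 to 91800.2 in WT and 87975.5 to 128777.2 in KO. Of 7 cDC2 markers 2 were lower and 1 higher (median -1.01), and 2 of 7 T cell markers were lower, with Cd3d and Cd3g at 0 in all KO libraries. The part of these markers in the members' values was not tested. WT replicate 1 was the lowest WT library for 8 members. Without it Gbp2 had a log2 fold change of 1.18 (adjusted p = 0.0568 by limma) and Gbp7 one of 0.73 (adjusted p = 0.163).

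In spleen CD8a DCs the KO libraries had 2 members lower and none higher, where 3.63% of all tested genes were lower and 1.50% higher. Gbp8 was at 949.9 and 758.2 normalized counts in WT and 200.1 and 216.2 in KO, 4.07-fold lower (log2 fold change -2.02 ± 0.34, adjusted p = 3.98e-04 by limma). Gbp7 was at 86.5 and 151.0 in WT and 57.7 and 42.0 in KO (-1.20 ± 0.26, adjusted p = 0.00578 by limma). Gbp6 was near the bottom of the scale, at 6.9 and 16.2 in WT and 2.8 and 1.2 in KO (-2.01 ± 0.72, adjusted p = 0.119 by limma). The other 7 had log2 fold changes from -0.61 for Gbp3 to 0.76 for Gbp5, and the median over the members was -0.02.

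The WT spleen CD8a libraries held more macrophage transcripts than the KO ones. The summed level of 5 red pulp macrophage markers was 22744.5 and 40425.6 in WT and 1793.0 to 2319.5 in KO, with 5 of 5 called lower, and 7 of 9 monocyte and macrophage markers were called lower, none of them at 0 in both libraries of a group. Spic, the transcription factor of red pulp macrophages, was at 1460.3 and 1989.9 normalized counts in WT and 55.8 and 63.6 in KO. The part of these transcripts in the lower Gbp7 and Gbp8 values was not tested. The Gbp7 call was lost without WT replicate 2, the library with more macrophage transcripts (-0.80, adjusted p = 0.148 by limma), and without KO replicate 2 (-0.97, adjusted p = 0.126), while Gbp8 was called without any 1 library. With only the 4 CD8a libraries in the fit neither was called, nor was any other of the 13311 genes tested.

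In spleen CD11b DCs no member was called by limma, where 1.28% of all tested genes rose and 0.233% fell; edgeR and DESeq2 called none either, and 1 member had an unadjusted p under 0.05. Log2 fold changes ran from -0.42 for Gbp8 (95% interval -1.13 to 0.28) to 1.55 for Iigp1 (-0.12 to 3.21), with a median of 0.44. Iigp1 was at 21.5 and 22.9 normalized counts in WT and 84.7 and 52.5 in KO. Irgm1 was at 1127.8 and 1142.6 in WT and 1452.9 and 1440.6 in KO (0.35, 95% interval -0.07 to 0.77), and Gbp2 at 294.3 and 427.4 in WT and 570.2 and 464.3 in KO (0.54, -0.16 to 1.23). None of these genes was called with 2 libraries per genotype. The share of all genes with both KO libraries above both WT ones was not counted, so that order is not read as a rise.

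**Figure D3:**
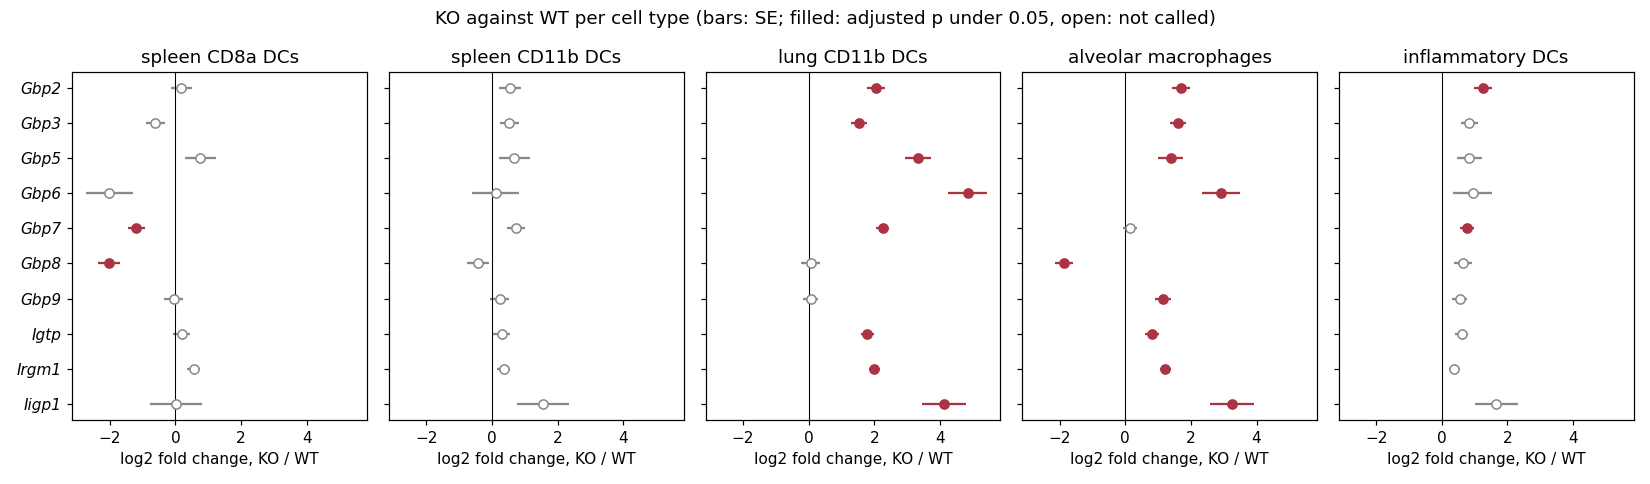
Log2 fold change of KO against WT for each member (rows) in each cell type (panels), with bars for the moderated standard error, filled points for calls at adjusted p under 0.05 and open points for the rest. Lung CD11b DCs have 8 filled points to the right of 0, alveolar macrophages 8 to the right and Gbp8 to the left, and spleen CD11b DCs none.

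The KO effects were then compared between cell types by a test of the difference itself. The effect in spleen CD11b DCs minus that in lung CD11b DCs was negative and called for 6 members and positive for none, where 5.86% and 6.60% of all tested genes were called. These were Gbp2, Gbp5, Gbp6, Gbp7, Igtp and Irgm1, with differences from -1.50 for Igtp to -4.73 for Gbp6. Gbp3 (-1.01) and Iigp1 (-2.58) missed the threshold. With only the groups compared in the fit, Gbp2, Gbp6 and Igtp were not called (adjusted p = 0.0631, 0.0873 and 0.0504 by limma) and Gbp3 was (0.0435). The Gbp2 call was also lost without WT replicate 2 or KO replicate 2 of the spleen cells, or KO replicate 3 of the lung cells (0.0551 to 0.137). For the lung effect the spleen cells of the same surface type thus differed in 6 of the 8 members that rose.

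Alveolar macrophages minus lung CD11b DCs gave 5 members with a negative difference (background 6.60%) and 1 with a positive one (background 10.2%). Gbp7 differed most clearly (-2.11 ± 0.30, adjusted p = 4.02e-05 by limma), followed by Gbp8 (-1.92), Gbp5 (-1.95), Irgm1 (-0.78) and Igtp (-0.98). For Gbp8 the difference was between a fall in alveolar macrophages (-1.86) and a value not called in lung (0.06). Gbp9 had the larger effect in alveolar macrophages (1.08 ± 0.34, adjusted p = 0.0324 by limma). That call was lost with only the groups compared (adjusted p = 0.117 by limma) and without any 1 of 6 libraries (0.0746 to 0.107). The Igtp and Irgm1 calls were lost with only the groups compared too (0.0638 and 0.0864), and without any 1 of 5 and of 6 libraries. That of Gbp5 was lost with sample weights or without WT alveolar macrophage replicate 2 (both 0.0574). Gbp2 and Gbp3 had differences of -0.38 (95% interval -1.17 to 0.42) and 0.06 (-0.66 to 0.79). Inflammatory DCs minus lung CD11b DCs gave 5 members with a smaller effect (background 6.95%), Gbp5, Gbp6, Gbp7, Igtp and Irgm1, and none with a larger one (background 6.08%). Gbp2, the gene with the smallest p in inflammatory DCs, had a difference of -0.81 that was not called. All 3 of these differences share the lung libraries. Spleen CD8a minus spleen CD11b gave Gbp7 alone (-1.93 ± 0.37, adjusted p = 0.00317 by limma), 1 lower of 10 (background 2.25%) and none higher (background 0.195%). With only the groups compared Gbp7 was not called (adjusted p = 0.177 by limma) and Gbp8 was (-1.60, 0.0434). The WT CD8a libraries held more red pulp macrophage transcripts than the KO ones, as given above.

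The WT inflammatory DCs and the KO lung CD11b DCs were each compared with the same WT lung libraries, and their levels are given side by side with no test. Gbp2 was at 2211.9 to 2834.8 normalized counts in WT inflammatory DCs and 1835.4 to 3295.1 in KO lung CD11b DCs, ranges that overlap. Gbp3 was at 801.0 to 932.6 and 813.9 to 881.6. Irgm1 was lower in the WT inflammatory DCs, at 1504.9 to 1752.3 against 2269.2 to 2822.3, and Igtp likewise, at 501.6 to 553.3 against 790.5 to 1293.1. Against the shared WT lung libraries, Gbp6 had log2 fold changes of 5.57 in the WT inflammatory DCs and 4.84 in the KO lung DCs, and Iigp1 had 3.99 and 4.12. Gbp8 and Gbp9 were called in neither comparison.

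Other genes of the pathway were followed as lists, described by counts and medians. The background is the share of all tested genes called higher and lower in KO. It was 12.0% and 14.0% in lung CD11b DCs, 10.5% and 6.39% in alveolar macrophages and 1.45% and 1.92% in inflammatory DCs. In spleen it was 1.50% and 3.63% in CD8a DCs and 1.28% and 0.233% in CD11b DCs. Ifng, the ligand, was near 0 throughout: its highest library was at 16.2 normalized counts, in WT spleen CD8a DCs, all 3 WT alveolar macrophage libraries were at 0.0, and no KO comparison called it.

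Irf1, which binds GBP promoters, rose in inflammatory DCs (0.82 ± 0.19, adjusted p = 0.0141 by limma), from 1383.4, 2013.3 and 2064.3 normalized counts in WT to 2343.2, 3288.7 and 4111.6 in KO. In lung CD11b DCs its log2 fold change was -0.20 ± 0.19 and in alveolar macrophages -0.06 ± 0.19, neither called. In spleen CD8a and CD11b DCs it was -0.30 and -0.32, again not called. In KO lung CD11b DCs 6 of the 12 genes of interferon-gamma receptor and signalling were higher (background 12.0%) and 3 lower (background 14.0%). Their median was 0.26, with Irf8, Ifngr2 and Ptpn2 among those that rose. In alveolar macrophages 4 rose (background 10.5%), Socs3, Ifngr2, Socs1 and Ptpn2, and 1 fell, near the background of 6.39% (median 0.15). In each spleen type Socs3 rose alone (medians 0.14 and 0.10), and in inflammatory DCs the median was 0.11.

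Relatives outside the 10 moved in the same cell types. Of 18 other tested GBP and IRG family genes, 7 rose (background 12.0%) and none fell in KO lung CD11b DCs (median 1.64). Those that rose included Ifi47 (2.66 ± 0.27), Gm4951 (3.84 ± 0.61), Gm12250 (2.88 ± 0.47) and Irgm2 (2.26 ± 0.39). In alveolar macrophages 7 rose (background 10.5%) and none fell (median 0.96), with the smallest p for Tgtp2 (2.61 ± 0.30). In inflammatory DCs Tgtp2 rose alone (1.22 ± 0.30, median 0.65). In spleen CD8a DCs Gm12185 rose alone (median 0.30), and in spleen CD11b DCs none was called (median 0.70).

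The list of genes that respond mainly to interferon-gamma had 9 of 14 higher (background 12.0%) and none lower in KO lung CD11b DCs (median 2.41). Among the 9 were Cd274, the gene of PD-L1 (2.05 ± 0.16), and the serpin Serpina3g (2.76 ± 0.31). The chemokine Cxcl9 (3.54 ± 0.43) and the interleukin-18 antagonist Il18bp (3.97 ± 0.55) rose too. In alveolar macrophages 4 rose (background 10.5%), Slamf8, Serpina3g, Nlrc5 and Cd274 (median 0.97). Ciita, the class II transactivator, fell, 1 of 14, near the background of 6.39%. In inflammatory DCs 3 rose, Slamf8 (0.72), Cd274 (0.62) and Serpina3g (1.11), with a median of 0.73. In spleen CD8a DCs Ubd and Il18bp fell (median 0.30), and in spleen CD11b DCs none of the 14 was called (median 0.26).

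Most genes of the list for type I interferon signalling and antiviral response rose in both steady-state lung cell types. The list joins genes that respond to interferon-alpha and interferon-beta with signalling genes such as Ifnar1, Ifnar2 and Tyk2. In KO lung CD11b DCs 23 of 24 rose (background 12.0%, median 2.66), with Ifit2 at 4.47 ± 0.29, Oasl1 at 5.30 ± 0.36, Bst2 at 2.09 ± 0.15 and Zbp1 at 2.48 ± 0.18. In alveolar macrophages 22 rose (background 10.5%) and 1 fell (background 6.39%), with a median of 3.32. The smallest p-values were those of Oas2 (5.22 ± 0.29), Usp18 (4.34 ± 0.26), Rtp4 (4.57 ± 0.28) and Oasl2 (4.57 ± 0.31). In inflammatory DCs limma called none of the 24 in either direction (median 0.02, 2 with an unadjusted p under 0.05). In spleen CD8a DCs Oasl2 and Zbp1 rose (median 0.25), and in spleen CD11b DCs Ifi44 rose alone (median 0.78). All genes tested had medians from -0.05 to 0.02 in the same comparisons. No difference between the lists was tested.

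**Figure D4:**
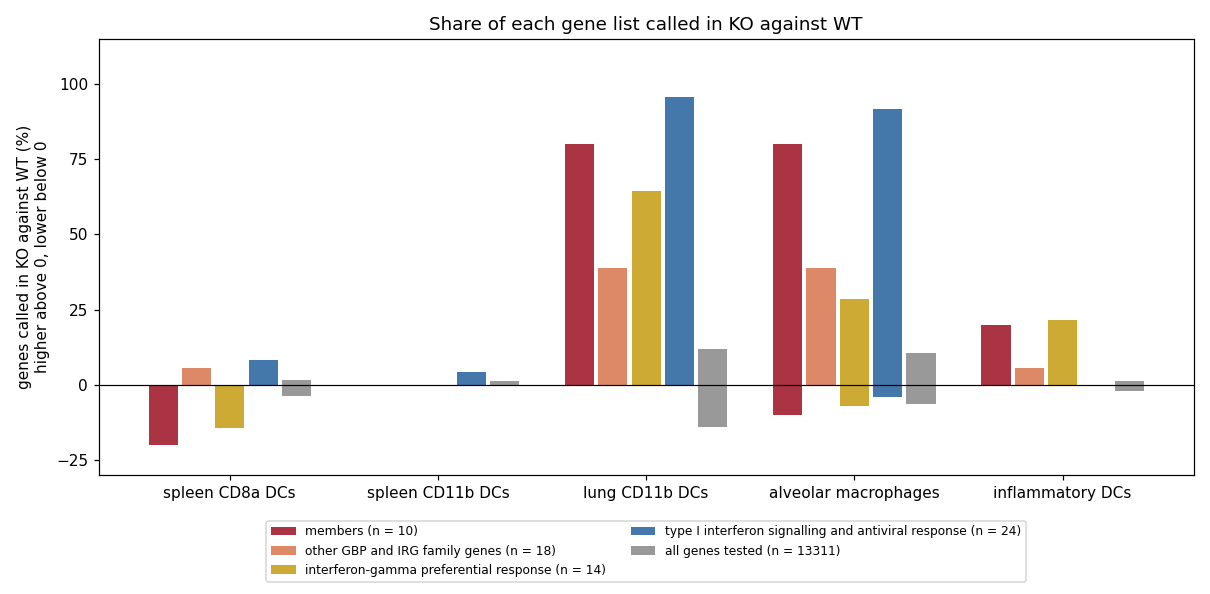
Percent of each gene list called higher (above 0) or lower (below 0) in KO against WT for the 5 cell types, for the 10 members, 18 other family genes, 14 interferon-gamma genes, 24 type I interferon genes and all 13311 genes tested. In lung CD11b DCs 8 of 10 members and 23 of 24 type I genes rose, and in inflammatory DCs 2 of 10 and 0 of 24.

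Partners of the GTPases were also counted. Of 15 ubiquitin and ATG8-conjugation genes, which help GBPs and IRGs reach vacuoles, 5 were higher and 1 lower in KO lung CD11b DCs (median 0.20). Of all tested genes there, 12.0% were higher and 14.0% lower. Those that rose included Atg12 (0.96 ± 0.14), Gabarap (0.75 ± 0.12), Traf6 (0.63 ± 0.14) and Atg5 (0.51 ± 0.13). In alveolar macrophages Gabarapl1 (0.88) and Atg12 (0.71) rose and Map1lc3b fell by 0.24 (median 0.13), 2 and 1 of 15, near the 10.5% and 6.39% of all genes. In spleen CD11b DCs Gabarapl1 rose alone (median 0.02), and in spleen CD8a and inflammatory DCs none was called (medians -0.05 and 0.08). Of 9 inflammasome partners, Ninj1, Pycard and Casp4 rose and Aim2 fell in lung CD11b DCs (median 0.22). The 1 of 9 that fell was near the 14.0% of all genes. Ninj1 and Pycard rose in alveolar macrophages (median 0.03), 2 of 9 where 10.5% of all genes rose. Ninj1 and Casp1 fell in spleen CD8a DCs (median -0.24), and none was called in spleen CD11b or inflammatory DCs (medians 0.06 and 0.24). Among 6 tested interferon ligands and inducers, Il12b (1.73) and Il12a (2.12) rose and Il18 fell by 1.21 in lung CD11b DCs (median 0.42). The 1 of 6 that fell was again near the 14.0% of all genes. Il12b rose in alveolar macrophages (median 0.95), 1 of 6 where 10.5% of all genes rose. Il18 fell in spleen CD8a DCs (median 0.00), where 3.63% of all genes fell.

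The pattern of the members over the 10 groups was summarised as the mean of their standardised log2 group means, with likeness measured by Pearson's r over the 10 groups. The groups share cell types and genotypes, so r describes these data and carries no test. Igtp (0.954), Gbp3 (0.950) and Irgm1 (0.944) were closest to that mean among the members, and Gbp9 (0.482) and Gbp8 (0.151) farthest. Outside the family B2m (0.992), which encodes the light chain of class I molecules, Ifngr2 (0.957), Samhd1 (0.954), Gtdc1 (0.947) and Sectm1a (0.941) were the most alike. Of the pairs of members, Igtp and Irgm1 had the highest r at 0.95.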

How the data were processed

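STAR 2.3.1s (alignment), HTSeq (counting), DESeq2 1.10.1 and the build mm10 are named in the submitters' processing notes. No source used here gives the gene annotation, the strand setting or the HTSeq version. What the authors deposited is a normalized signal for every gene symbol in every library, in which each value is a read number scaled by 1 size factor. The smallest steps between values returned these factors (0.754 to 1.48), after which 100% of values were whole to within 1e-06 reads.

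Tests used limma 3.58.1 (R 4.3.3) on log2 of the normalized count plus a pseudocount of 1, a scale that understates the change of low genes. The 13311 genes tested reached a normalized count of 10 in 2 or more libraries. The model held 1 mean per group for all 26 libraries and moderated the variances by empirical Bayes along a trend with the mean. KO was compared with WT in each cell type, 4 pairs of cell types were compared in WT, and 4 differences of KO effects were tested. Benjamini-Hochberg adjustment ran within each contrast, and an adjusted p under 0.05 was called. Intervals are 95% moderated intervals of single genes, and errors beside counts are SDs. The labels do not say that libraries came from separate animals, so the p-values reflect spread among these samples only.

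The rule for names took all 10 members, Mtor, Ifng and Irf1 whatever their values, and up to 4 called genes with the smallest p per list. Where few members were called, some are covered by a range or a count. One gene that this rule names is not reported here. The members, the lists of related genes and markers, and the tests were chosen with earlier results of these data known. Positions and exon lengths are from GENCODE M21 (GRCm38), and promoters from RefSeq. Alternatives were pseudocounts of 0.25 and 8, no filter, TMM scaling, edgeR 4.0.16 and DESeq2 1.42.0 on the recovered reads, sample weights, only the groups compared, and leaving out each library. The fit was tested on simulated data.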

Additional observations from a re-analysis of the deposited data

Results flagged for a closer look

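For 18 combinations of a member and a pair of cell types, the KO effect in one cell type differed from that in the other by limma's test of the difference itself (adjusted p under 0.05 over all genes tested). The values are differences of log2 fold changes, and no cause was tested. In spleen CD11b DCs the effect was smaller than in lung CD11b DCs for Gbp2 (-1.53), Gbp5 (-2.65), Gbp6 (-4.73), Gbp7 (-1.52), Igtp (-1.50) and Irgm1 (-1.65). In alveolar macrophages it was smaller than in lung CD11b DCs for Gbp5 (-1.95), Gbp7 (-2.11), Igtp (-0.98) and Irgm1 (-0.78), and larger for Gbp9 (1.08). Gbp8 (-1.92) fell in alveolar macrophages and was not called in lung CD11b DCs. In inflammatory DCs it was smaller than in lung CD11b DCs for Gbp5 (-2.49), Gbp6 (-3.90), Gbp7 (-1.48), Igtp (-1.20) and Irgm1 (-1.62). In spleen CD8a DCs, whose WT libraries held more red pulp macrophage transcripts than the KO ones, it was lower than in spleen CD11b DCs for Gbp7 (-1.93). Groups of 2 or 3 libraries were too small for a test of single outlying libraries.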

How the results depend on the processing

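Of 1950 member values under alternatives, 1817 kept their direction and side of the threshold, 75 lost a call, 18 gained one and 40 changed sign, each from a value that was not called. In lung CD11b DCs 8 members were called under every alternative. Counts of members called moved as follows: KO spleen CD8a DCs from 2 to 0 with only the groups compared and 1 to 2 without 1 library; KO inflammatory DCs from 2 to 1 with pseudocount 0.25 or no filter, 3 with pseudocount 8 or DESeq2, 4 with edgeR, 0 with only the groups compared and 0 to 4 without 1 library; alveolar macrophages minus lung from 6 to 3 with only the groups compared and 3 to 6 without 1 library; spleen CD8a minus CD11b from 1 to 2 with DESeq2; WT CD8a against CD11b spleen from 5 to 3 with sample weights, 2 with only the groups compared and 2 to 4 without 1 library. With only the groups compared, none of the 13311 genes tested was called in KO spleen CD8a DCs or in KO inflammatory DCs. The cause was not tested. Signs changed for Gbp8 (-0.38) and Gbp9 (-0.03) in the lung libraries with 13876 to 14407 genes above 0; alveolar macrophages minus lung, Gbp3 (-0.04, pseudocount 8) and Iigp1 (0.19 edgeR, 0.28 DESeq2); spleen CD8a minus CD11b, Gbp5 (-0.0024, edgeR); WT lung against spleen CD11b, Iigp1 (0.01 pseudocount 8, 0.32 edgeR, 0.25 DESeq2). Without 1 library, KO spleen CD8a ranges were -0.34 to 0.69 (Gbp2), -0.24 to 0.11 (Gbp9), -0.05 to 0.43 (Igtp) and -0.36 to 0.39 (Iigp1); KO spleen CD11b -0.99 to 1.21 (Gbp6); KO lung -0.19 to 0.28 (Gbp8) and -0.16 to 0.24 (Gbp9); KO alveolar macrophages -4.5e-05 to 0.25 (Gbp7); alveolar macrophages minus lung -0.22 to 0.35 (Gbp3); spleen CD11b minus lung -0.02 to 0.38 (Gbp9); spleen CD8a minus CD11b -0.87 to 0.15 (Gbp2), -0.45 to 0.61 (Gbp5) and -0.34 to 0.14 (Igtp); WT CD8a against CD11b -0.38 to 0.68 (Gbp5) and -0.48 to 1.72 (Gbp6); WT lung against spleen CD11b -0.76 to 1.44 (Gbp6) and -0.64 to 0.32 (Iigp1); WT inflammatory against lung -0.01 to 0.18 (Gbp8). A spleen group left with 1 library was assumed to vary like the other groups. The low counts of Gbp6, Gbp5 and Iigp1 limit their precision. No paired analysis was possible because the replicate numbers were given in accession order and the labels tie no samples across groups.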
